A study of Mus musculus with 35 samples.

Results

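Transcripts of the ErbB receptors and of the EGF-type growth factors that bind them were followed in NMuMG cells, a line of epithelial cells that was derived from normal mammary gland of the mouse. The members are 10 genes taken by symbol from the 20261 genes of the inhibitor experiment: the receptors Egfr, Erbb2 and Erbb3, the ligands Tgfa, Areg, Ereg, Hbegf, Btc and Epgn, and the neuregulin Nrg1. RNA sequencing was done on cells kept with JNKi, a compound, not named in the labels, that inhibits the c-Jun N-terminal kinase (JNK), or with its vehicle DMSO. Each arm had 2 libraries per time (24, 48, 72 and 96 h and 7 d), which makes 20. The labels give every sample as NmuMG cells of strain E9 and wild-type genotype, and the protocol text attached to every sample includes transforming growth factor β at 2 ng/ml with a medium change every 2 days. All groups are 1 cell line, so no animals are compared, and a further 15 samples of a time course were not used here.

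ErbB receptors are tyrosine kinases that act as pairs: ligand binding opens the extracellular part of EGFR, ERBB3 or ERBB4, while ERBB2 binds no known ligand itself and serves as the preferred partner of the others, and ERBB3 signals mainly through a partner because its own kinase is weak. The EGF-type ligands are made as membrane-anchored precursors that proteases of the ADAM family cut free, and they differ in the receptors they reach. In the mammary gland amphiregulin, acting through EGFR, is required for the growth of the ducts at puberty.

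The libraries held between 9492324 reads, in JNKi 7 d replicate 1, and 48584027 reads, in DMSO 72 h replicate 1. Values are normalized reads, the authors' read counts divided by a factor for each library, and differences are on the log2(value + 1) scale from a limma fit over 13896 genes with a group mean of at least 10. An adjusted p (Benjamini-Hochberg over those genes) under 0.05 counts as called. Of the 10 members 9 passed this filter; Epgn did not. The epithelial markers Cdh1, Krt8, Krt18 and Krt19 were at 3711 or more in every library, whereas Epcam was at 0 in 15 of 20 libraries and reached at most 12.6, and Cldn3 and Cldn7 reached at most 2.40 and 4.30. Of 6 leukocyte markers Ptprc, Itgam and Lyz2 reached at most 17.5, 30.5 and 45.5, but Cd14 was at 484 to 1876, Csf1r at 439 to 880 and Cd68 at 93.7 to 296. Of 5 endothelial markers Pecam1, Kdr and Tek reached at most 26.6, 24.5 and 9.80, but Flt1 was at 269 to 497.5 and Cdh5 at 59.1 to 371.5. Of the fibroblast markers Col1a1 was at 527 to 1918 and Pdgfrb at 106 to 506, while Dcn, Lum and Thy1 reached at most 8.30, 3.50 and 2.00. What part these cells' genes have in the results was not tested. Over all libraries the summed levels were 684 to 2447 for 6 fibroblast markers, higher at 7 d (1786 to 2006 in JNKi, 1846 to 1984 in DMSO) than at 24 h (684 to 721 in JNKi, 738 to 752 in DMSO), 1138 to 2452 for 6 leukocyte, 433 to 737 for 5 endothelial and 0 to 27.7 for 4 adipocyte markers.

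Promoter windows from RefSeq (GRCm38.p6, 250 bases before to 50 after the start site, matched by symbol) are shown for the pair of members with a called difference between arms, Areg and Erbb2, and for Btc, the neighbour of Areg on the same chromosome. They lie at chr5:91139349-91139648 on the plus strand for Areg, chr11:98412234-98412533 on the plus strand for Erbb2, and chr5:91402945-91403244 on the minus strand for Btc. The AP-1 motif TGACTCA, on the other strand TGAGTCA, is bound by Jun and Fos proteins, and the cAMP response element (CRE) TGACGTCA, which reads the same on both strands, by ATF and CREB proteins. Capitals mark a match.
Areg: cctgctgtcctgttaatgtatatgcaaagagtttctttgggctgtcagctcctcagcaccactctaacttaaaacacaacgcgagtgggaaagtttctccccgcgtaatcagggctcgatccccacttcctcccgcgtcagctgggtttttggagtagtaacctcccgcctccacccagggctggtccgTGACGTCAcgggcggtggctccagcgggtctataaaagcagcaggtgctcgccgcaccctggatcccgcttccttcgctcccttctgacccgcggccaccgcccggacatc
Erbb2: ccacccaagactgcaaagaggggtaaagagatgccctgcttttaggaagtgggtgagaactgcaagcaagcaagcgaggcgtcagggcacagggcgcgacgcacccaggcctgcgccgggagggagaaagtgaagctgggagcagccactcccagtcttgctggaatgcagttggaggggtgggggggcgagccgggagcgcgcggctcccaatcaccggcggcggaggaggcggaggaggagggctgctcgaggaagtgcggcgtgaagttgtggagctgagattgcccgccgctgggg
Btc: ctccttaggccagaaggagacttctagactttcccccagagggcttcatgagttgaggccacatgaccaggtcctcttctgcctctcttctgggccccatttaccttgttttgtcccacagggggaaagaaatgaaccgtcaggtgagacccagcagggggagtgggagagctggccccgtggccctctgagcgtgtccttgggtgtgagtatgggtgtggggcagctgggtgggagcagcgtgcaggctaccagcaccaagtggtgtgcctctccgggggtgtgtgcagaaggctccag
The Areg window held 1 match, the CRE, with its first base at position -61 from the start site. This CRE was held by 1.79% of all 32851 windows given by RefSeq and 5.2% held the AP-1 motif. Windows of 6 members were searched, the others being Egfr, Tgfa and Epgn, and these letters were in no other of the 6. Erbb3, Ereg, Hbegf and Nrg1 were not searched.

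Set per length and depth (RPKM, with the union of exons of each gene in GENCODE vM21 as length), amphiregulin (Areg) and heparin-binding EGF-like growth factor (Hbegf) had the highest levels of the family. Areg had a median of 64.2 RPKM over the 20 libraries, with a range from 39.5 to 127, and Hbegf a median of 56.2, with a range from 30.9 to 80.9. Egfr and Erbb2 came next, at medians of 20.6 and 18.4 RPKM. Their library ranges overlapped each other, and the highest Egfr library, at 25.9 RPKM, lay below the lowest Hbegf library. Tgfa, transforming growth factor α, had a median of 9.40 RPKM, epiregulin (Ereg) 3.60, Nrg1 3.43, betacellulin (Btc) 1.49 and Erbb3 0.556. The ranges of Ereg and Nrg1 overlapped, as did those of Btc and Erbb3. Epgn, epigen, was at the floor of the measurement with 0 to 5.60 normalized reads in JNKi libraries and 0 to 3.20 in DMSO libraries. One length per gene ignores which isoforms these cells make, so the order of near neighbours is rough.

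**Figure D1:**
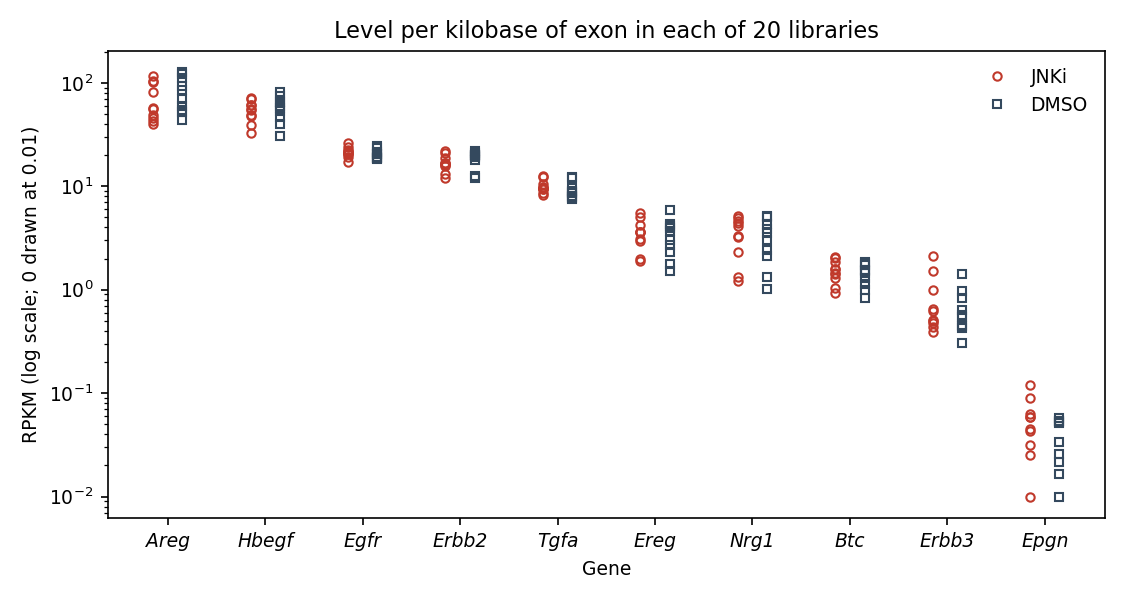
Level of each member in RPKM (log scale) in each of the 20 libraries, circles for JNKi and squares for DMSO, genes ordered by their median. Areg and Hbegf sit above 30 RPKM in every library, and Epgn at or below 0.121 RPKM.

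Of the receptors, Erbb2 and Erbb3 fell over the course in both arms, while no change of Egfr was called. At 7 d against 24 h, 5 of the 9 members tested were called in JNKi cells, against 58% of all genes tested, and 6 of 9 in DMSO cells, against 59.9%; the DMSO count was 4 without DMSO 7 d replicate 2, when Areg and Hbegf were no longer called. The median log2 change of the 9 members was -0.49 in JNKi and -0.50 in DMSO, with 0.06 for all genes in each arm. At 96 h against 24 h, 5 of 9 were called in JNKi, against 59.8%, and 4 of 9 in DMSO, against 63.3%. Of the changes at 7 d against 96 h, 2 of 9 were called in each arm, Erbb2 and Areg, both lower, against 39.7% of all genes in JNKi and 36.5% in DMSO. An F-test over the 5 times called 8 of 9 members in each arm, against 76.4% of all genes in JNKi and 78% in DMSO, and leaving out 1 library at a time gave 6 to 8. Most genes of these cells changed with time, and the share of members called was near that background.

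Egfr was the member not called by the F-test, in either arm. In JNKi cells it had 6849 and 6977 (24 h), 6128 and 5737 (48 h), 7854 and 6487 (72 h), 6844 and 6198 (96 h), and 6327 and 7278 (7 d). Values per library are normalized reads, replicate 1 before replicate 2. In DMSO cells it had 5993 and 6292 (24 h), 6073 and 6182 (48 h), 7191 and 6008 (72 h), 7424 and 6453 (96 h), and 7599 and 6233 (7 d). All 20 values lay between 5737 and 7854, and at 48 h to 7 d the arms overlapped. Adjusted p over the 5 times was 0.256 in JNKi and 0.427 in DMSO, and the difference between arms averaged over the times was 0.03 ± 0.05 log2 (SE), an interval of -0.08 to 0.13 at 2 SE.

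Erbb2, the receptor without a ligand of its own, had 3169 and 3146 (24 h), 2791 and 2569.5 (48 h), 2425 and 2365 (72 h), 2332 and 2199.7 (96 h), and 1597 and 1687 (7 d) in JNKi cells. In DMSO cells it had 2921 and 2735 (24 h), 3096 and 3089 (48 h), 3045 and 3216 (72 h), 2887 and 2791 (96 h), and 1700 and 1734 (7 d). In JNKi both libraries of each later time lay below both of the time before, whereas in DMSO all libraries through 96 h lay between 2735 and 3216 and those at 7 d far below. Between the ends of the course, 7 d against 24 h, Erbb2 fell by 0.94 ± 0.07 log2 (SE) in JNKi, adjusted p = 3.87e-08, and by 0.72 ± 0.07 in DMSO, adjusted p = 3.87e-07. Against 96 h the 7 d level fell by 0.46 in JNKi and 0.73 in DMSO, adjusted p = 0.000114 and 2.81e-06. Already at 72 h against 24 h, a comparison added after seeing the data, Erbb2 fell by 0.40 ± 0.07 in JNKi, adjusted p = 0.000354, while the DMSO value was 0.15 ± 0.07, adjusted p = 0.0974. These calls of Erbb2 were kept under every alternative tried and without each library in turn.

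Erbb3, the receptor for neuregulins with the weak kinase, had 367 and 272 (24 h), 176 and 79.6 (48 h), 112 and 85.3 (72 h), 107 and 84.0 (96 h), and 74.9 and 59.5 (7 d) in JNKi cells, and 247 and 177 (24 h), 148 and 105 (48 h), 100.4 and 80.0 (72 h), 109.8 and 53.2 (96 h), and 77.4 and 71.0 (7 d) in DMSO cells. It was highest at 24 h in both arms, where every JNKi library lay above every DMSO library, and from 48 h on the arms overlapped. Erbb3 at 7 d against 24 h fell by 2.22 ± 0.36 log2 (SE) in JNKi, adjusted p = 6.68e-05, and by 1.49 ± 0.36 in DMSO, adjusted p = 0.00189. The 24 h difference between arms, 0.59 ± 0.36, was not called, adjusted p = 1.00. Beside the fall of both receptors, and those of Tgfa and Areg, the summed level of the 9 epithelial markers decreased to 99312 to 106373 normalized reads at 7 d in JNKi, against 335386 to 378602 at 24 h, and to 131793 to 167131 in DMSO, against 329789 to 347612. This sum was mostly Krt8 and Krt18, which averaged 183553 and 123372 at 24 h in DMSO, so it says little on the other markers. The part of this sum in the receptor and ligand values was not tested, and in bulk RNA fewer cells of a type and less RNA per cell cannot be told apart. The fourth receptor, Erbb4, averaged 8.70 ± 7.35 normalized reads in JNKi at 7 d and 1.55 ± 0.212 in DMSO at 7 d (SD, n = 2 each), and under 1 at all earlier times.

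**Figure D2:**
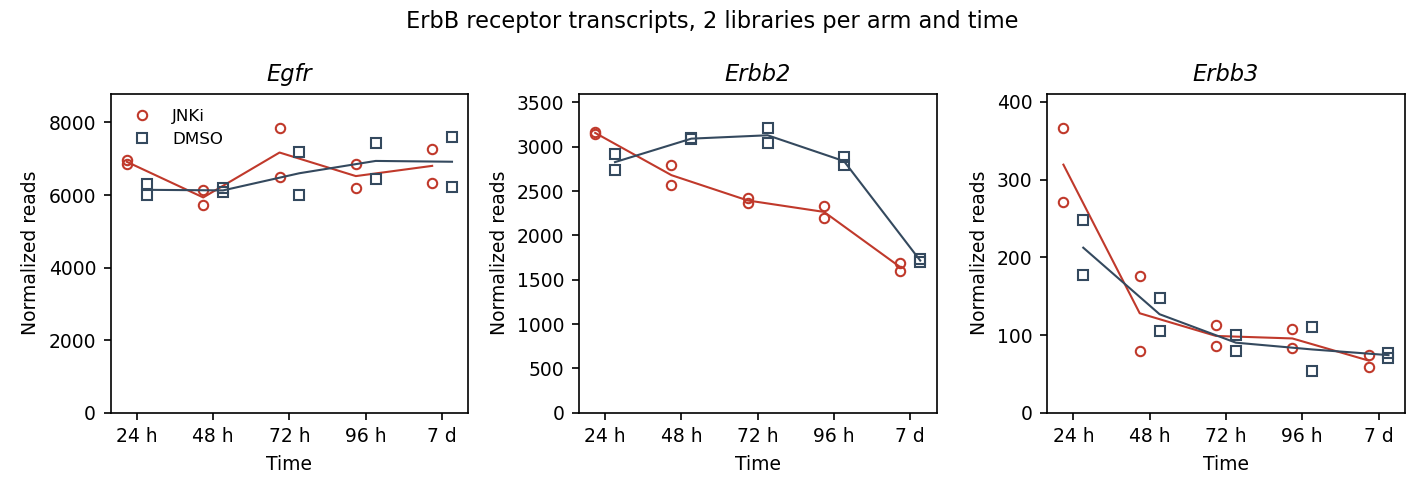
Normalized reads of Egfr, Erbb2 and Erbb3 at each time, open circles for JNKi and squares for DMSO libraries, lines through the mean of 2 libraries. Egfr stays between 5737 and 7854, the Erbb2 arms separate from 48 h to 96 h and lie between 1597 and 1734 at 7 d, and Erbb3 drops below 180 in all libraries after 24 h.

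Among the ligands, Areg, Ereg and Btc had lower means at 72 h than at 24 h or 96 h in both arms, Tgfa fell, and Nrg1 rose, as did Hbegf by 96 h. Areg, Ereg and Btc stand with Epgn in a row in the RefSeq gene order of mouse chromosome 5. Areg had 2893 and 4216 (24 h), 1983 and 2128 (48 h), 1773 and 1575 (72 h), 3491 and 3389 (96 h), and 1369.7 and 1230.4 (7 d) in JNKi cells, and 3255 and 4681 (24 h), 2138 and 2597 (48 h), 1949 and 1582 (72 h), 3871 and 4227 (96 h), and 2878 and 1832 (7 d) in DMSO cells. The 96 h values stood above those at 72 h in both arms, with no overlap. The comparisons of 72 h with 24 h and of 96 h with 72 h were added after this course was seen. At 72 h against 24 h Areg fell by 1.06 ± 0.20 log2 (SE) in JNKi, adjusted p = 0.000659, and by 1.15 ± 0.20 in DMSO, adjusted p = 0.000248. At 96 h against 72 h it rose by 1.04 ± 0.20 in JNKi, adjusted p = 0.00122, and by 1.20 ± 0.20 in DMSO, adjusted p = 0.000245. All 4 calls were kept without each library.

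Ereg, a low-affinity ligand of EGFR and ERBB4, had 435 and 679 (24 h), 240.4 and 376 (48 h), 385 and 221 (72 h), 578 and 486 (96 h), and 394 and 379 (7 d) in JNKi cells, and 441 and 741 (24 h), 219 and 295 (48 h), 339.7 and 186 (72 h), 471 and 514 (96 h), and 476 and 343 (7 d) in DMSO cells. Its replicates lay far apart, and replicate 2 was the higher at 24 h and 48 h and the lower at 72 h in both arms. At 72 h against 24 h Ereg fell by 0.89 ± 0.33 log2 (SE) in JNKi, adjusted p = 0.0383, and by 1.18 ± 0.33 in DMSO, adjusted p = 0.00718. Both calls were lost when only the groups compared were fitted, adjusted p = 0.121 and 0.0716, and the JNKi call also without the filter, without the trend and in DESeq2, with 0.0574 to 0.0795. The JNKi value was -0.57 without JNKi 24 h replicate 2 and -0.50 without JNKi 72 h replicate 2, adjusted p = 0.306 and 0.348. The DMSO value was -0.81 without DMSO 24 h replicate 2 and -0.75 without DMSO 72 h replicate 2, adjusted p = 0.113 and 0.126. At 96 h against 72 h the JNKi value of 0.86 just missed the threshold, adjusted p = 0.0580, and passed it without either DMSO library of 24 h or of 72 h, at 0.86, or without JNKi 72 h replicate 1, at 1.26, with adjusted p between 0.0322 and 0.0464. In DMSO Ereg rose by 0.97 ± 0.33, adjusted p = 0.0282. That DMSO call was lost without DMSO 72 h replicate 2, at 0.53, without DMSO 96 h replicate 1, at 1.03, or without DMSO 96 h replicate 2, at 0.90, with adjusted p between 0.0717 and 0.287, and was 0.0509 without the filter and 0.0652 without the trend.

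Btc, a ligand of EGFR and ERBB4, had 133 and 136 (24 h), 111 and 92.1 (48 h), 80.6 and 118 (72 h), 162 and 164 (96 h), and 111 and 138 (7 d) in JNKi cells, and 146 and 133 (24 h), 111 and 99.7 (48 h), 73.2 and 84.4 (72 h), 149 and 152 (96 h), and 118 and 122 (7 d) in DMSO cells. The 96 h libraries were the highest of the course in each arm. In JNKi the value at 72 h against 24 h, -0.46 ± 0.19 log2 (SE), was not called, adjusted p = 0.0637, though without JNKi 72 h replicate 2 it was -0.73, adjusted p = 0.0189, and without the trend the adjusted p was 0.0407. In DMSO Btc fell by 0.82 ± 0.19, adjusted p = 0.00223. At 96 h against 72 h Btc rose by 0.74 ± 0.19 in JNKi, adjusted p = 0.00788, and by 0.93 ± 0.19 in DMSO, adjusted p = 0.00117. The JNKi rise was 0.47 without JNKi 72 h replicate 1 and 0.73 without JNKi 96 h replicate 2, with adjusted p = 0.142 and 0.0551.

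Over all members, 96 h against 72 h gave 2 of 9 higher in JNKi (Areg and Btc), where 29.1% of all genes were called, 11.8% higher and 17.3% lower, and 4 of 9 higher in DMSO (Areg, Ereg, Btc and Nrg1), where 36.6% were called, 15.8% higher and 20.8% lower; none was called lower in either arm. The JNKi count was 1 without JNKi 96 h replicate 2 and 3, with Ereg, without either DMSO library of 24 h or 72 h, and the DMSO count 2 without DMSO 72 h replicate 2 or either DMSO 96 h replicate. The rise of Nrg1 in DMSO, 0.50 ± 0.19 with adjusted p = 0.0433, was 0.31 without DMSO 72 h replicate 2, 0.53 without DMSO 96 h replicate 1 and 0.48 without DMSO 96 h replicate 2, and 0.50 without either JNKi 96 h library, with adjusted p between 0.0544 and 0.306; without the filter or the trend it was also not called, 0.0701 and 0.0803. At 72 h against 24 h, 7 of 9 members were called in each arm, against 39.7% of all genes in JNKi and 46.8% in DMSO. Both comparisons with 72 h were chosen after the courses of the members were seen. Their counts can exceed the background through that choice alone. Across the 10 group means the log2 levels of Ereg and Btc had a Pearson correlation of 0.907, Areg and Ereg 0.735 and Areg and Btc 0.710, a description over points that share libraries and times.

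**Figure D3:**
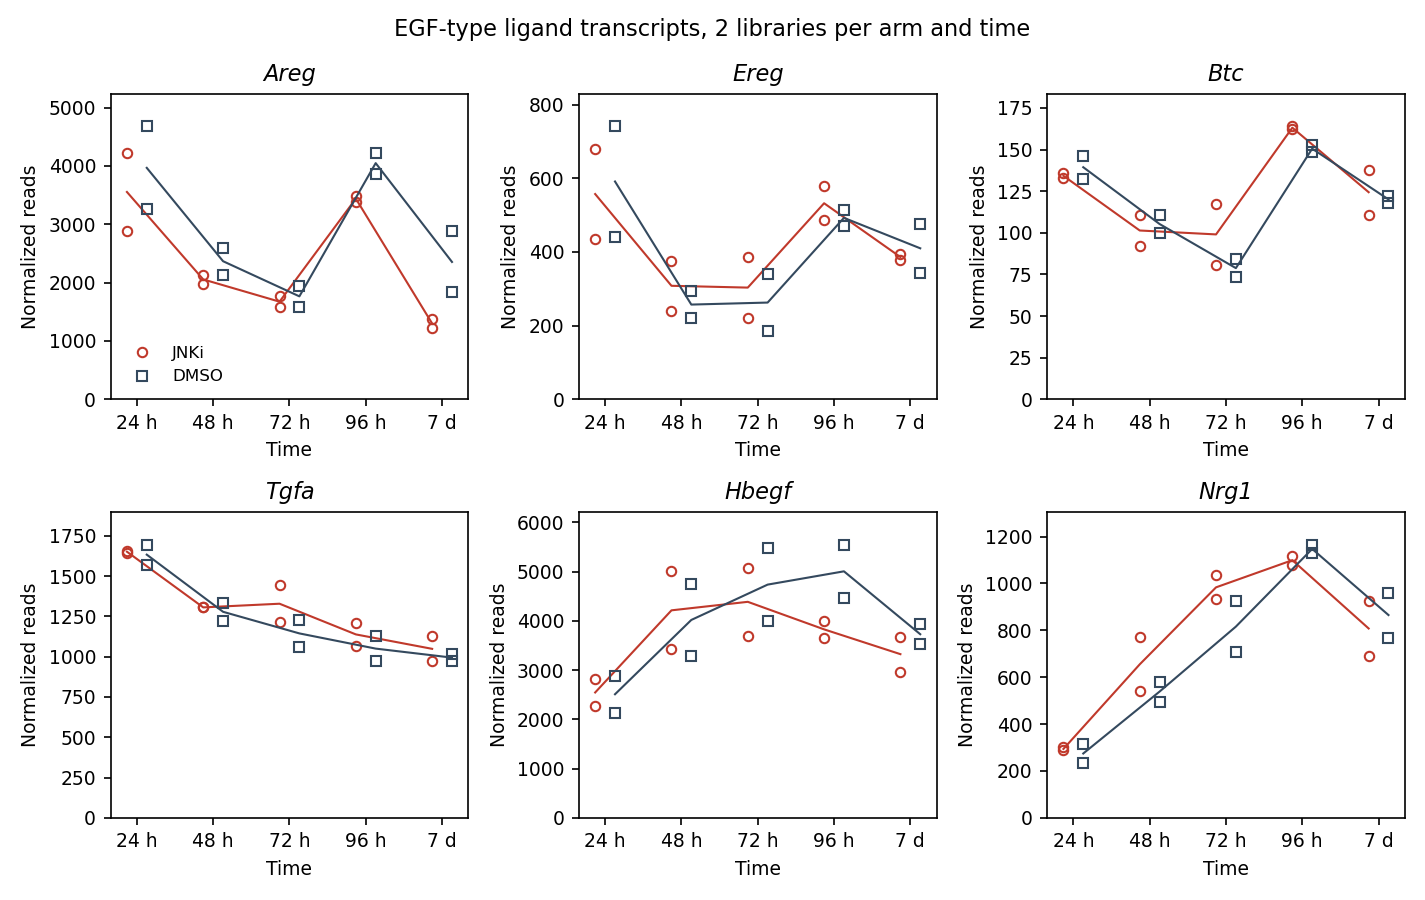
Normalized reads of the 6 ligands with a testable level at each time, circles for JNKi and squares for DMSO libraries, lines through the mean of 2 libraries. Areg, Ereg and Btc are higher at 96 h than at 72 h in both arms, Tgfa declines over the course, and Nrg1 climbs until 96 h.

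Tgfa had 1645 and 1657 (24 h), 1306 and 1305 (48 h), 1444 and 1212 (72 h), 1207 and 1069 (96 h), and 970.5 and 1126 (7 d) in JNKi cells, and 1571 and 1694 (24 h), 1224 and 1332 (48 h), 1229 and 1059.5 (72 h), 974 and 1126 (96 h), and 971 and 1016 (7 d) in DMSO cells. The 24 h libraries of both arms lay above all later ones. Tgfa at 7 d against 24 h fell by 0.66 ± 0.11 log2 (SE) in JNKi, adjusted p = 0.000106, and by 0.71 ± 0.11 in DMSO, adjusted p = 4.39e-05. Both calls were kept under every alternative tried and without each library. No source used here says whether the counting used strand, so reads of the opposite-strand transcripts that overlap exons of Tgfa (Gm43917), Ereg (Gm19610), Nrg1 (Gm26578) and Erbb2 (Mien1, by 9 bases) cannot be told apart from theirs.

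Nrg1, whose product binds ERBB3 and ERBB4, had the largest log2 change of the 9 members tested at 96 h against 24 h in both arms. In JNKi cells it had 300.2 and 288 (24 h), 539.5 and 770.2 (48 h), 1035 and 932 (72 h), 1080.4 and 1118 (96 h), and 690.4 and 925 (7 d). In DMSO cells it had 235 and 314 (24 h), 496 and 581 (48 h), 926 and 706 (72 h), 1129.5 and 1165 (96 h), and 961 and 769 (7 d). Every library from 48 h on lay above every 24 h library, and the arms overlapped at 24 h, 48 h and 7 d, while both JNKi libraries lay above both DMSO libraries at 72 h and below them at 96 h. At 96 h against 24 h Nrg1 rose by 1.90 ± 0.19 log2 (SE) in JNKi, adjusted p = 3.32e-07, and by 2.07 ± 0.19 in DMSO, adjusted p = 8.74e-08, or 3.73-fold and 4.21-fold. The rises at 7 d against 24 h were 1.44 and 1.66, adjusted p = 9.46e-06 and 1.72e-06. Nrg1 rose over the times at which Erbb3, the neuregulin receptor measured in these cells, fell, and the 2 had a Pearson correlation of -0.896 over the 10 group means, a description.

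Hbegf had 2274 and 2817 (24 h), 3424 and 5002 (48 h), 5069.8 and 3702 (72 h), 4001 and 3652 (96 h), and 2967 and 3679 (7 d) in JNKi cells, and 2129 and 2889 (24 h), 3280.2 and 4756 (48 h), 5476 and 3995 (72 h), 4466 and 5544 (96 h), and 3928 and 3528 (7 d) in DMSO cells. Its lowest libraries were those at 24 h, and its replicates lay far apart at 48 h and 72 h. At 96 h against 24 h it rose by 0.59 ± 0.22 log2 (SE) in JNKi, adjusted p = 0.0288, and by 1.00 ± 0.22 in DMSO, adjusted p = 0.000853, of which the DMSO call was kept under every alternative tried. The JNKi call was lost without JNKi 24 h replicate 1, at 0.44, JNKi 96 h replicate 1, at 0.53, or JNKi 96 h replicate 2, at 0.66, with adjusted p between 0.0613 and 0.178, and without the filter, without the trend and in DESeq2, with 0.0506, 0.0663 and 0.0527. The JNKi value at 7 d against 24 h was 0.38, adjusted p = 0.147 (0.0314 with only the groups compared), and in DMSO Hbegf rose by 0.59 ± 0.22, adjusted p = 0.0313. The DMSO call was lost without DMSO 24 h replicate 1, at 0.37, DMSO 7 d replicate 1, at 0.51, or DMSO 7 d replicate 2, at 0.66, with adjusted p between 0.0571 and 0.249, and also without the trend, 0.0704, and in DESeq2, 0.0680.

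The make-up of the EGF-receptor ligand transcripts differed between times. Of the summed RPKM of Areg, Hbegf, Tgfa, Ereg, Btc and Epgn, Areg made up 61.8% to 66.3% in the JNKi libraries at 24 h and 65.6% to 67.9% in DMSO. At 72 h Hbegf was the larger share, with 48.4% to 52.9% in JNKi and 51.1% to 53.7% in DMSO. Areg led again at 96 h, with 57.2% to 58.9% in JNKi and 55.7% to 58.5% in DMSO. At 7 d Areg made up 34.3% to 41.3% in JNKi and 45.1% to 53.9% in DMSO, and Hbegf 45.8% to 52.5% in JNKi and 37.6% to 44.4% in DMSO. The Hbegf level itself was not called different between arms at 7 d (-0.17 log2 in limma, adjusted p = 0.660). Shares lay apart at other times too. Hbegf made up 22.7% to 24.8% in JNKi and 21.5% to 22.0% in DMSO at 24 h. At 96 h it made up 32.5% to 33.5% in JNKi and 34.5% to 37.4% in DMSO. The Tgfa shares did not overlap at 72 h, 96 h or 7 d, with 7.86% to 8.42% in JNKi and 4.88% to 6.71% in DMSO at 7 d. Those of Ereg were apart at 48 h, 96 h and 7 d, and those of Btc at 96 h and 7 d. Tgfa never passed 9.43% in any library. These shares are not tested, depend on the exon lengths used, and are of RNA rather than of ligand.

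**Figure D4:**
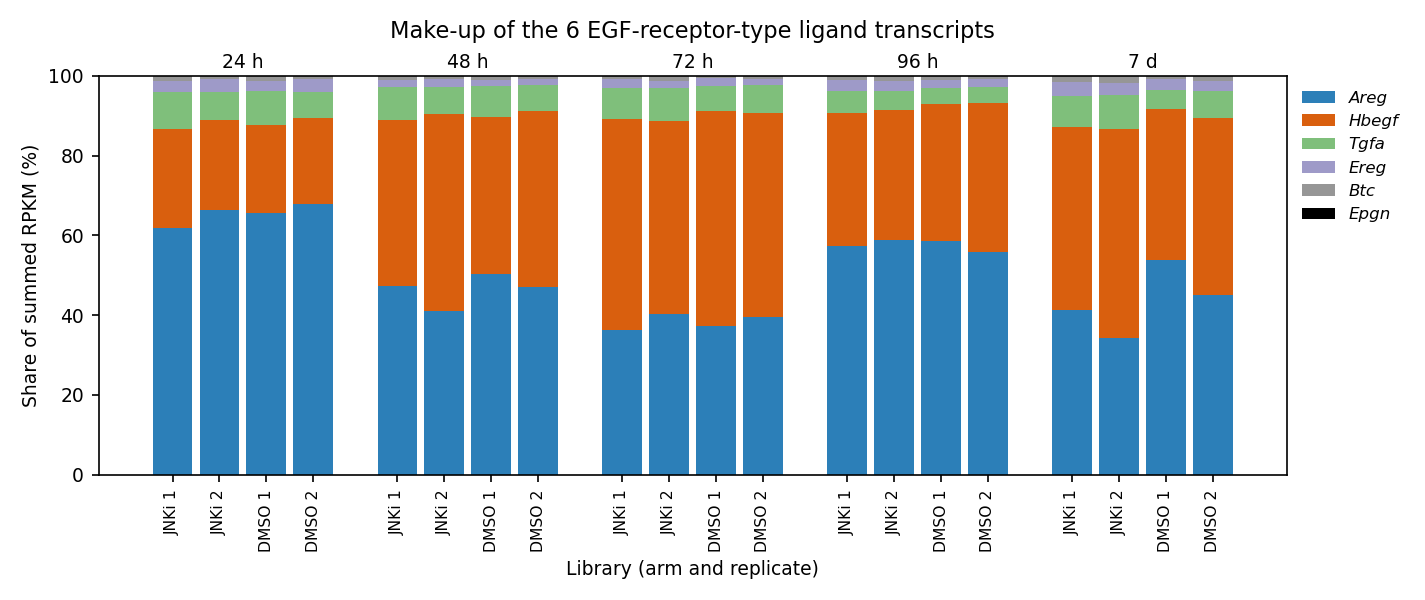
Share (%) of each of 6 ligands in their summed RPKM, one bar per library, grouped by time with JNKi left of DMSO. Areg and Hbegf fill most of every bar, Areg leads at 24 h and 96 h, and Hbegf leads at 72 h.

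Between JNKi and DMSO cells few members differed. JNKi against DMSO gave no called member at 24 h or 48 h, where no gene at all was called (0%), with 610 and 521 of 13896 genes at an unadjusted p under 0.05. In edgeR no gene was called at either time, and in DESeq2 1 and 2. At 24 h 6 genes were called with a pseudocount of 0.5, 5 with TMM scaling and 3 without the trend. Fits with a replicate block within time called more genes and are given below with the limits of the pairing. At 72 h and 96 h again no member was called, against 0.072% and 0.0072% of all genes. At 7 d 1 of 9 was called, Areg, against 10.2%, and for the mean of the 5 times 1 of 9, Erbb2, against 4.77%. Both were lower in JNKi.

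At 7 d Areg had 1369.7 and 1230.4 normalized reads in JNKi, against 2878 and 1832 in DMSO, so that both JNKi libraries lay below both DMSO libraries. The difference was -0.82 ± 0.20 log2 (SE), adjusted p = 0.0170, or 0.57-fold. At 24, 48, 72 and 96 h it was -0.16, -0.20, -0.07 and -0.23, none of them called. In its own arm Areg fell at 7 d against 96 h by 1.41 in JNKi, adjusted p = 7.56e-05, and by 0.82 in DMSO, adjusted p = 0.00519; without DMSO 7 d replicate 2 the DMSO fall was 0.49 with adjusted p = 0.119. Against 24 h the 7 d level fell by 1.43 in JNKi, adjusted p = 2.23e-05, and by 0.77 in DMSO, adjusted p = 0.00391, where the DMSO fall was 0.50 without DMSO 24 h replicate 2 and 0.44 without DMSO 7 d replicate 2, adjusted p = 0.0809 and 0.0929.

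The 7 d difference of Areg rests on few libraries. It was -0.50 without DMSO 7 d replicate 1, -0.90 without JNKi 7 d replicate 1 and -0.74 without JNKi 7 d replicate 2, with adjusted p = 0.239, 0.0765 and 0.116, and without the trend in limma the adjusted p was 0.0524. Without any 1 of these 3 libraries the number of genes called at 7 d was 368 to 563, against 1414 with all. The test of whether the 7 d difference exceeded that at 24 h gave -0.66 ± 0.29, adjusted p = 0.253, against a background of 2.1% of genes called. At 7 d the summed epithelial markers, mostly Krt8 and Krt18, were at 99312 to 106373 normalized reads in JNKi and 131793 to 167131 in DMSO, and the 4 mammary basal markers at 352 to 379.9 in JNKi and 136 to 173 in DMSO. The part of these marker levels in the Areg value was not tested.

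Erbb2 was lower in JNKi over the mean of the 5 times, with a difference of -0.16 ± 0.03 log2 (SE), adjusted p = 0.00695, a call kept under every alternative and without each library. The arms did not overlap at any time, but their order turned: both JNKi libraries were above both DMSO libraries at 24 h and below them from 48 h on. The differences were 0.16 (24 h), -0.21 (48 h), -0.39 (72 h), -0.33 (96 h) and -0.06 (7 d), each ± 0.07 (SE). None of these was called in limma at its own time, neither the 24 h value above 0 nor the later ones below. At 7 d the adjusted p was 0.594, and the nearest libraries of the arms had 1687 and 1700 normalized reads. Taken alone the 72 h difference just missed the threshold, adjusted p = 0.0509, and passed it in edgeR (0.0493) and DESeq2 (0.000125). At 96 h it missed the threshold in limma, adjusted p = 0.258, and edgeR (0.209) and passed it in DESeq2 (0.00374). The F-test of whether the arm difference changed with time gave adjusted p = 0.0695, with 0.324% of all genes called and no member.

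For the other 7 members tested no difference between arms was called. Their values at single times ran from -0.38 (Hbegf at 96 h) to 0.59 (Erbb3 at 24 h) log2, and over the mean of 5 times from -0.11 ± 0.10 (Hbegf) to 0.16 ± 0.16 (Erbb3). At 2 SE the mean difference of Tgfa lay between -0.01 and 0.19, and that of Nrg1 between -0.07 and 0.26, while that of Erbb3, whose replicates varied more, reached 0.48. Over all 9 members the median difference was 0.07 for the mean of 5 times and -0.07 at 7 d, with 0.00 and 0.02 for all genes. Areg was at -0.30 ± 0.09 over the mean of 5 times, adjusted p = 0.0704 in limma. In DESeq2 it was called, at -0.31 with adjusted p = 0.0153. Without DMSO 24 h replicate 1, DMSO 7 d replicate 2 or JNKi 24 h replicate 2 the limma value was -0.36 to -0.35.

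**Figure D5:**
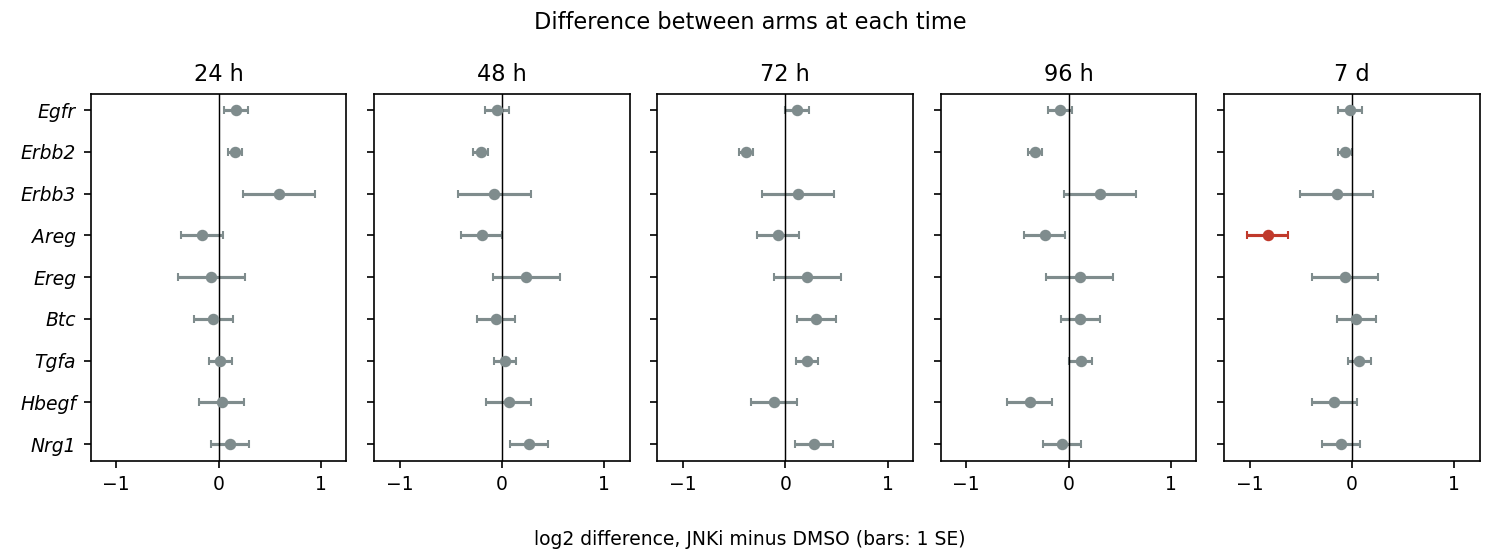
Log2 difference of JNKi minus DMSO for the 9 members tested at each time, bars 1 SE of the limma fit; red marks an adjusted p under 0.05. Areg at 7 d, at -0.82, is the red point, and Erbb2 lies left of 0 from 48 h on.

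The surrounding pathway was described from 82 genes in 6 lists, of which 79 were tested. In the JNKi arm at 7 d against 24 h there were 15 higher and 35 lower, against 31.7% and 26.3% of all genes, and in the DMSO arm 24 higher and 28 lower, against 32% and 28%. Among the other receptors and ligands Egf itself, a low transcript here, averaged 114 ± 16.1 normalized reads at 7 d in JNKi, against 26.1 ± 2.90 at 24 h, and 129 ± 32.1 at 7 d in DMSO, against 29.1 ± 0.495 at 24 h (SD, n = 2). It rose by 2.08 ± 0.25 SE in each arm, adjusted p = 3.56e-06 in JNKi and 2.72e-06 in DMSO. Of 9 sheddases and trafficking genes, which release and deliver the ligands, 5 were higher and 1 lower in JNKi and 4 higher and 3 lower in DMSO. Adam15 reached 9443 ± 709 in DMSO at 7 d, against 4574 ± 233 at 24 h (1.04 ± 0.08 SE, adjusted p = 1.42e-08). In JNKi it rose by 0.71 ± 0.08 SE, adjusted p = 1.23e-06. Adam12, at 18.7 ± 4.53 against 2.15 ± 3.04 in DMSO, was also called higher, with one level near the floor of the measurement. The rise of Adam12 in JNKi was 3.48 ± 0.71 SE, adjusted p = 0.000553, from a 24 h mean of 1.60.

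Of 15 receptor inhibitors and endocytosis genes, 2 were higher and 6 lower at 7 d against 24 h in JNKi, and 7 higher and 2 lower in DMSO. The shares of all genes were 31.7% higher and 26.3% lower in JNKi, and 32% and 28% in DMSO. Lrig3 and Lrig2 belong to a family of membrane proteins whose member Lrig1 restrains ErbB receptors. In DMSO Lrig3 rose by 1.19 ± 0.20 SE, adjusted p = 8.30e-05, and Lrig2 by 1.15 ± 0.12 SE, adjusted p = 5.94e-07. Lrig2 rose in JNKi as well, by 0.65 ± 0.12 SE, adjusted p = 0.000197. Between arms, this list held 2 of the 7 pathway genes called for the mean of 5 times (2 higher and 5 lower of 79, against 2.45% and 2.32% of all genes). Ptprk, a receptor phosphatase that acts on EGFR, was lower in JNKi, with a difference of -0.34 ± 0.05 SE, adjusted p = 0.00126, as was Lrig1, with -0.33 ± 0.06 SE, adjusted p = 0.00656. At 7 d, where 4 of the 79 were higher and 8 lower in JNKi, against 4.84% and 5.33% of all genes, Ptprk averaged 6390.4 ± 250 normalized reads in JNKi and 13272 ± 2163 in DMSO (SD, n = 2 each), a difference of -1.05 ± 0.11 SE, adjusted p = 5.04e-05.

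Of 20 adaptors and Ras-ERK cascade genes tested, 3 were higher and 11 lower at 7 d against 24 h in JNKi, and 5 higher and 10 lower in DMSO. Rps6ka1, a kinase activated by ERK, and Ksr1, a scaffold of the cascade, fell in DMSO, with log2 changes of -1.45 ± 0.11 SE, adjusted p = 2.28e-08, and -1.15 ± 0.13 SE, adjusted p = 1.87e-06. Of 18 ERK-responsive targets, 1 was higher and 12 lower in JNKi at 7 d, and 4 higher and 8 lower in DMSO. For both lists the shares of all genes were 31.7% higher and 26.3% lower in JNKi, and 32% and 28% in DMSO. Fos averaged 179.6 ± 4.10 normalized reads in DMSO at 7 d, against 2115 ± 1059 at 24 h (-3.45 ± 0.84 SE, adjusted p = 0.00210), and Etv4, a transcription factor of the ETS family, fell as well (-1.38 ± 0.17 SE, adjusted p = 3.27e-06). The urokinase receptor Plaur was lower in JNKi over the mean of 5 times (-0.29 ± 0.06 SE, adjusted p = 0.0160; without the trend in limma 0.0504).

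Of 14 PI3K-Akt and other kinase genes, 3 were higher and 5 lower at 7 d against 24 h in each arm. Among all genes 31.7% were higher and 26.3% lower in JNKi, and 32% and 28% in DMSO. Pik3r1, a regulatory subunit of PI3K, rose in DMSO (0.69 ± 0.13 SE, adjusted p = 0.000323), as did Stat5a (0.64 ± 0.21 SE, adjusted p = 0.0140), whose change was 0.39 without DMSO 24 h replicate 2 and 0.44 without DMSO 7 d replicate 2, adjusted p = 0.187 and 0.143, with 0.0638 when only the groups compared were fitted. Between arms Pik3r3 was higher in JNKi (0.23 ± 0.05 SE, adjusted p = 0.0176) and Stat5b lower (-0.20 ± 0.04 SE, adjusted p = 0.00904) over the mean of 5 times. The medians of the 6 lists for that mean lay between -0.08 and 0.00 log2, with 0.00 for all genes.

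Among 11599 genes with a group mean of at least 50, those whose course over the 10 group means was most like that of a member were Tpd52 and Itpk1 for Erbb3 (Pearson r = 0.984 and 0.979) and Xrcc4 and Polr1c for Tgfa (0.993 and 0.990). For Areg they were Cab39 and Fam136a (0.979 and 0.975), for Ereg Aktip and Acsl1 (0.968 and 0.962), and for Btc Fam45a and Adal (0.958 and 0.955). For Nrg1 they were Itpripl2 and 1110018G07Rik (0.988 and 0.987), for Hbegf Ier5 and Zfp619 (0.979 each) and for Erbb2 2310067B10Rik and Ccdc120 (0.979 and 0.972). Egfr had the loosest match, Kcnn1 and Zfp931 at 0.869 and 0.835. With 10 points searched against so many genes such values are a description.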

How the data were processed

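NMuMG cells with JNKi or DMSO were profiled by RNA sequencing. Per the submitters' processing notes the tools named are TopHat, HTSeq and DESeq, with the mouse build mm9; no source used here gives their settings. The authors deposited a table of normalized read counts (a signal: each gene's reads divided by a factor for its library), and each value above 0 lay within 0.1 of a whole multiple of its library's step, so that whole reads could be recovered (100% of values). The 15 columns of a time-course table were not used because its values are split at the decimal point.

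Differences were tested with limma 3.58.1 (R 4.3.3, trend) on log2(value + 1), with all 20 libraries, 1 mean per group and genes whose mean reached 10 in any group. P-values are two-sided and adjusted over 13896 genes; the threshold is 0.05. Depth is 9492324 to 48584027 reads. limma weighs all libraries equally, whereas edgeR 4.0.16 and DESeq2 1.42.0, run on the recovered reads as alternatives, use the depth. The other alternatives were the pseudocount, the filter, the scaling, the trend, a replicate block, fits of only the groups compared, and leaving out each library. The test was run on simulated data, drawn with a fixed spread and no deviation shared between libraries. That check cannot show how the test behaves at the spread of these libraries. The labels do not say that replicates were separate cultures, so the p-values measure the spread between these libraries, which may be technical. No replicate pair agreed within sampling noise.

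The members, pathway lists and marker lists were chosen with earlier results of these data known. Of the pathway lists, up to 2 genes each are named, those with the largest log2 change past the test at 7 d against 24 h in DMSO and in the mean difference between arms; likewise the 2 genes most like each member by Pearson r. One gene that this rule names is not reported here. The promoter windows are of GRCm38.p6, another build than that of the counts.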

Additional observations from a re-analysis of the deposited data

Results flagged for a closer look

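Erbb2 was flagged because both JNKi libraries lay above both DMSO libraries at 24 h and below them at each later time. The log2 differences were 0.16 (24 h), -0.21 (48 h), -0.39 (72 h), -0.33 (96 h) and -0.06 (7 d), none of them called in limma. The F-test of a change of this difference with time gave an adjusted p of 0.0695 in limma. Nrg1 was likewise above DMSO in both JNKi libraries at 72 h, with 0.28, and below at 96 h, with -0.06, and the same F-test gave an adjusted p of 0.899. Epgn, at the floor and not tested, also had its arms apart at 96 h and at 7 d. Its libraries there held 0 to 8 reads each, too few to give an order of the arms. Libraries of the arms were also fully apart at some times for Egfr, Erbb3, Areg, Hbegf and Btc. With 2 libraries per arm this happens easily, and its share over all genes was not computed.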

How the results depend on the processing

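Of 62 called results for members, 43 kept their call under every alternative run for them and without each of the 20 libraries. The other 19 lost it without a library, 10 of these also under an alternative, and none changed direction. With 2 libraries per group, 1 library can decide a call. Rescaling to the upper quartile moved the median of all genes at 7 d against 24 h in JNKi by 0.11 log2. The replicate block within time was run only between arms, DESeq2 was not run for the F-tests, and fits of only the groups compared could not be made where all groups enter.

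The replicate numbers pair the samples only in part, since same-numbered JNKi and DMSO libraries deviated together at 24 h (r = 0.726), 48 h (0.591), 72 h (0.723) and 96 h (0.527) but hardly at 7 d (0.072), over 9605 genes. With a replicate block, genes called between arms were 0 at 96 h, 457 for the 7 d minus 24 h difference and 101 in the F-test, and members called were 1 at 72 h and 1 in the F-test, both Erbb2 (adjusted p = 0.0454 and 0.0495). With a replicate block within time, genes called were 19 at 24 h, 15 at 48 h, 334 at 72 h, 99 at 96 h, 3522 at 7 d, 2198 for the mean of 5 times, 1741 for the 7 d minus 24 h difference and 1148 in the F-test, and members called were 1 at 72 h, 1 at 96 h, 2 for the mean, 1 for the 7 d minus 24 h difference and 2 in the F-test. These were Erbb2 at 72 h (adjusted p = 0.00531), 96 h (0.0206) and in the F-test (0.00641), Areg for the 7 d minus 24 h difference (0.00531) and in the F-test (0.0125), and both for the mean.

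Of the other settings, for JNKi against DMSO, genes called at 24 h were 6 with a pseudocount of 0.5, 5 with TMM, 3 without the trend and 1 with DESeq2, and at 48 h 2 with DESeq2. At 72 h they were 2 without the trend, 105 with DESeq2 and 0 with only the groups compared, and 1 member, Erbb2, was called with a pseudocount of 8, a minimum of 50, edgeR or DESeq2. At 96 h they were 0 with a pseudocount of 8, no filter, no trend or only the groups compared and 34 with DESeq2, which also called 1 member, Erbb2. No member was called at 7 d without the trend (0), and 2 for the mean with DESeq2, Erbb2 and Areg. The 7 d minus 24 h difference had 138 genes without the trend, 512 with DESeq2 and 89 with only its groups, and the F-test 16 without the trend. With only the groups compared, members called at 7 d against 96 h were 4 in JNKi and 4 in DMSO, and genes called at 72 h against 24 h 2876 in JNKi and 4229 in DMSO; without a filter or without the trend 2 members were called at 96 h against 72 h in DMSO.

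Leaving out 1 library at a time, genes called for JNKi against DMSO ranged from 0 to 13 at 24 h, 0 to 4 at 48 h, 0 to 16 at 72 h, 0 to 1 at 96 h and 368 to 1519 at 7 d (members 0 to 1), 393 to 754 for the mean (members 1 to 2), 59 to 558 for the 7 d minus 24 h difference and 8 to 80 in the F-test. At 7 d against 96 h they ranged from 3340 to 5594 in JNKi (members 2 to 3) and 2605 to 5132 in DMSO (members 1 to 2), at 72 h against 24 h from 3183 to 5641 in JNKi, and at 96 h against 72 h from 2037 to 4147 in JNKi (members 1 to 3) and 3295 to 5160 in DMSO (members 2 to 4). Members called at 7 d against 24 h in DMSO ranged from 4 to 6. Areg between arms ranged from -0.43 to 0.11 at 24 h and -0.22 to 0.0792 at 72 h, and Egfr over the mean from -0.00174 to 0.0554, none of them called.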
